A study of Mus musculus with 4 samples.

Results

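CTCF binding around imprinted genes was examined in mouse liver at the start of the light phase (ZT0) and of the dark phase (ZT12), ZT standing for zeitgeber time. The genes were 40 listed imprinted genes, given by name, and 39 of them had a gene record among the 37310 of the GENCODE M1 annotation of mm9 (NCBIM37), all on autosomes, which hold 34653 gene records. Of these genes, 35 are protein coding and 4 (H19, Meg3, Rian and Mirg) are transcribed into long non-coding RNA. Kcnq1ot1, the non-coding RNA made antisense to Kcnq1, was not analysed here as a gene of its own, and sites within Kcnq1 were counted for Kcnq1. A listed CTCF site was assigned to a gene when it touched the gene body or the 50 kb on each side, a span called the window.

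An imprinted gene is expressed mainly from the copy inherited from one parent. Imprinted genes lie in clusters, in which a control region carries DNA methylation on one parental copy and not on the other. CTCF is a zinc finger protein that binds DNA, anchors chromatin loops together with cohesin and can keep an enhancer from a promoter, and methylation of its recognition sequence can prevent binding, as is known for the paternal copy of the control region between H19 and Igf2.

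ChIP-seq, the sequencing of DNA pulled down together with a protein by an antibody, was carried out against CTCF on livers of wild-type male C57BL/6 mice. Their age is labelled as 8 weeks, and they were fed ad libitum. Per the methods of the study, mice of that age were kept for 2 weeks in 12 h of light and 12 h of darkness. There were 2 biological replicates at ZT0 and 2 at ZT12, from tissue collected as for the Hi-C maps of the study, for which livers were pooled, so a replicate may hold more than one animal. Each time point has 1 list of site positions that covers both replicates and gives no score, strand, replicate or parental copy. The spread between replicates and the read depth are therefore unknown, differences between the time points were not tested, and a site that is missing from a list cannot be called unbound. By their label the lists came after a motif search and may hold only a small part of the called sites, so shared sites, sites listed at one time only and genes with no site are so only by these lists.

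Together the windows of the 39 genes covered 5.26 Mb and held 46 ZT0 sites and 32 ZT12 sites. At least 1 ZT0 site lay in the window of 25 of the 39 genes (64.1%), against 52.0% of all autosomal genes. For ZT12 sites these values were 24 genes (61.5%) and 42.4%, and 22 genes (56.4%) had sites of both lists against 39.9%. These shares were above those of autosomal genes as a whole. The windows of the imprinted genes were also longer, with a median of 127 kb against 106 kb, and against protein-coding autosomal genes alone (60.2% for ZT0, 49.9% for ZT12 and 47.3% for both) the distance was smaller. The part of window length in it was not tested. Neighbouring genes of a cluster can share the same sites, so the 39 genes are not independent of each other. Of the 19 clusters, 13 had a ZT0 site and 14 a ZT12 site. Per Mb of window there were 8.74 ZT0 sites against 5.39 around all autosomal genes, and 6.08 against 3.65 at ZT12. In the gene bodies alone, without the 50 kb on each side, there were 6.67 ZT0 sites per Mb against 5.34, but 2.92 ZT12 sites against 3.51, so the direction at ZT12 turned and its surplus lay in the flanks. Without the 6 genes of the distal chromosome 7 cluster, the densities in whole windows were 6.93 and 4.92 sites per Mb, so this cluster held part of the surplus.

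Sites of the lists that overlapped by at least 1 bp were called shared. This held for 27 of the 46 ZT0 sites (58.7%; 95% confidence interval by the Wilson method, 44.3 to 71.7%), against 56.4% of the autosomal ZT0 sites. Of the 32 ZT12 sites, 27 were shared (84.4%, 68.2 to 93.1%), against 83.9% of the autosomal ZT12 sites. The overlap between times around imprinted genes was thus close to that of the autosomes, and the intervals, which cover counting error only, hold the autosomal values. It differed by place: 7 of 16 ZT0 sites in gene bodies were shared (43.8%, against 56.2% on the autosomes) and 20 of 30 outside them (66.7%, against 56.7%), and at ZT12 the 7 in gene bodies all were (against 84.2%) and 20 of 25 outside (80.0%, against 83.5%). This split was made after the values were seen and was not tested. The remaining sites were 19 listed at ZT0 only, in 10 of the 19 clusters, and 5 listed at ZT12 only, in 4 clusters. In 18 of the 27 shared pairs the ZT12 site was the narrower one and in 9 the wider one, and the median of ZT12 width minus ZT0 width was -65.0 bp. ZT12 was the narrower one in 66.7% of these pairs, against 71.2% of 5645 autosomal pairs, whose median difference was -47.0 bp. Shared ZT0 sites had a median width of 333 bp and ZT0-only sites one of 310 bp, against 346 and 277 bp on the autosomes.

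**Figure D1:**
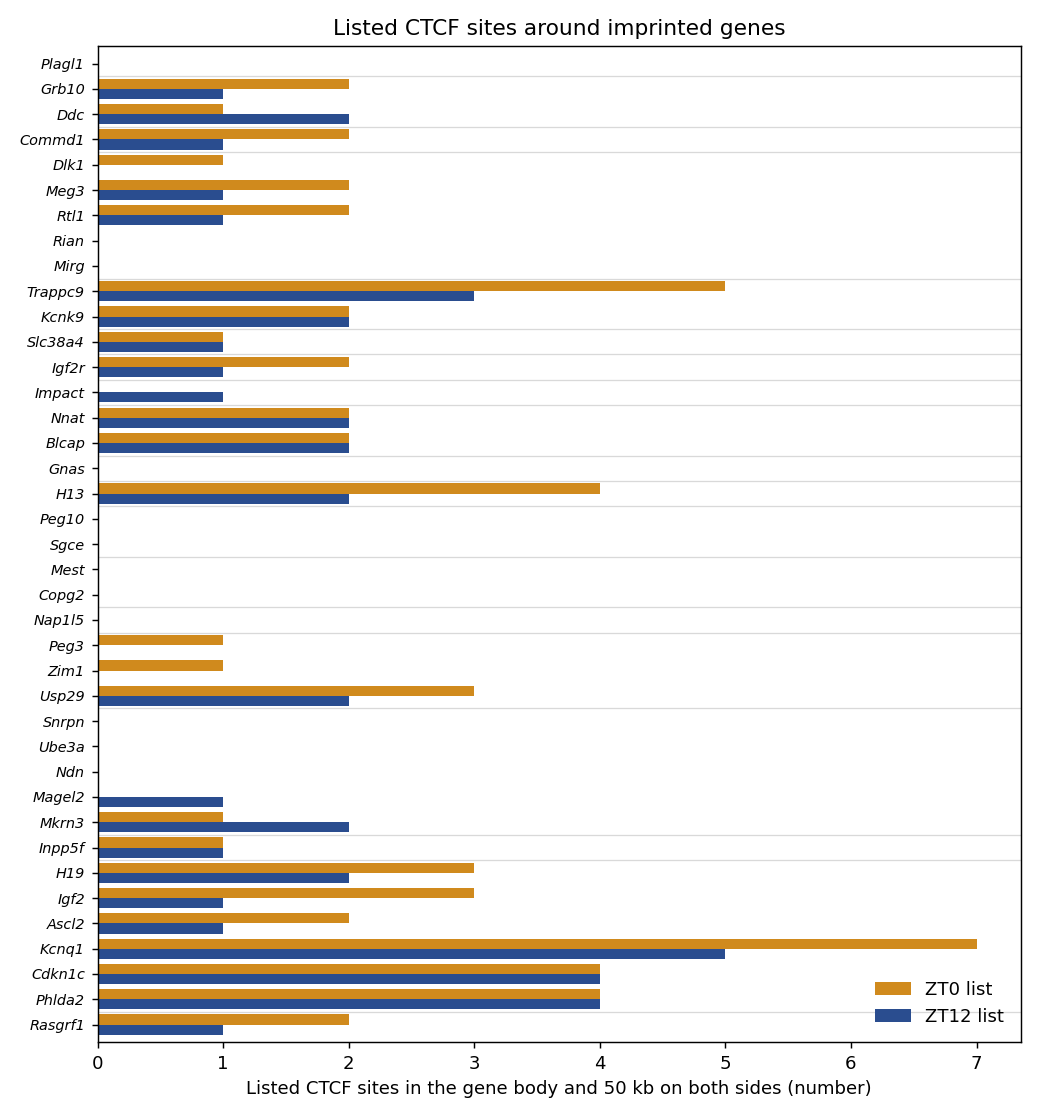
Number of listed CTCF sites (horizontal axis) in the body of each of 39 imprinted genes and the 50 kb on both sides, at ZT0 (orange) and ZT12 (blue), with genes grouped by imprinted cluster between grey lines. Kcnq1 had the most sites, 7 at ZT0 and 5 at ZT12, and 12 genes had none; a site in the windows of several genes is counted for each.

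A site lay within 10 kb of the gene start, the 5′ end of the gene record, in 9 genes at ZT0 (23.1%) against 17.4% of all autosomal genes, and in 6 genes at ZT12 (15.4%) against 12.5%. These genes were Cdkn1c, Igf2, Commd1, Meg3, Trappc9, Kcnk9, Blcap, H13 and Peg3 at ZT0, and the same list without Igf2, Trappc9 and Peg3 at ZT12. The median distance from the gene start to the nearest site, in the window or beyond it, was 40.8 kb at ZT0 and 58.0 kb at ZT12, against 57.6 and 88.9 kb for all autosomal genes. At H13 and Commd1 a listed ZT0 site covered the gene start itself, and at Blcap it began 0.344 kb upstream.

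The largest number of sites lay in the distal chromosome 7 cluster, with H19, Igf2, Ascl2, Kcnq1, Cdkn1c and Phlda2. Their windows held 15 ZT0 sites, of which 10 were shared, and 10 ZT12 sites, all shared, in 0.789 Mb. The cluster thus had 5 ZT0-only sites and no ZT12-only site. H19 is a maternally expressed non-coding RNA and Igf2 the paternally expressed growth factor gene next to it, and their starts lie 88.7 kb apart. In this interval a single ZT0 site was listed, chr7:149796557-149796774, between genes, 32.5 kb upstream of the H19 start and 55.9 kb downstream of the Igf2 start. It was ZT0-only, 218 bp wide and held no match to the CTCF motif described further on (score 4.47). No ZT12 site was listed in the interval, and neither list had a site in the 5 kb upstream of the H19 start, where the methylated control region lies. Downstream of H19, a shared site was listed at ZT0 at chr7:149723834-149724153 in an intron of Mrpl23, 39.9 kb from the H19 start. Another lay at chr7:149718673-149719216, 44.8 kb away and within 1 kb of the start of a Mrpl23 transcript. Igf2 had a ZT0-only site at chr7:149858072-149858361, 5.35 kb upstream of its start and between genes, and a shared site 48.0 kb upstream at ZT0. The H19 and Igf2 neighbourhood was therefore flanked by shared sites on both sides, while the sites listed closer to either gene were listed at ZT0 only.

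Cdkn1c, a maternally expressed inhibitor of cyclin-dependent kinases, had 4 shared sites in a row upstream of its start and no others. At ZT0 they were listed at chr7:150649836-150650196 (2.88 kb upstream), chr7:150652237-150652586 (5.28 kb), chr7:150655857-150656304 (8.90 kb) and chr7:150666460-150666825 (19.5 kb), the first 3 between genes and the last in an intron of Slc22a18. Their widths were 361, 350, 448 and 366 bp at ZT0 and 240, 361, 260 and 280 bp at ZT12. All of them were thus present at both times, and 3 of the 4 were narrower at ZT12. The same 4 sites were the only ones in the window of Phlda2, a maternally expressed gene that limits placental growth, 21.6 kb or more from its start. Kcnq1, a potassium channel gene, had 7 ZT0 sites (5 shared), of which 2 lay upstream of the gene, 2 in its 320 kb body and 3 among the Cdkn1c sites. The nearest to its start was shared, 12.1 kb upstream and within 1 kb of the start of a Trpm5 transcript. Within Kcnq1, the shared intron site at chr7:150324657-150324984 lay 31.5 kb downstream of the start, and a ZT0-only site at chr7:150339716-150340023, also intronic, 46.6 kb downstream. Ascl2, a maternally expressed transcription factor of the trophoblast, had a ZT0-only site 38.7 kb upstream and a shared site 49.6 kb downstream in an intron of Th.

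**Figure D2:**
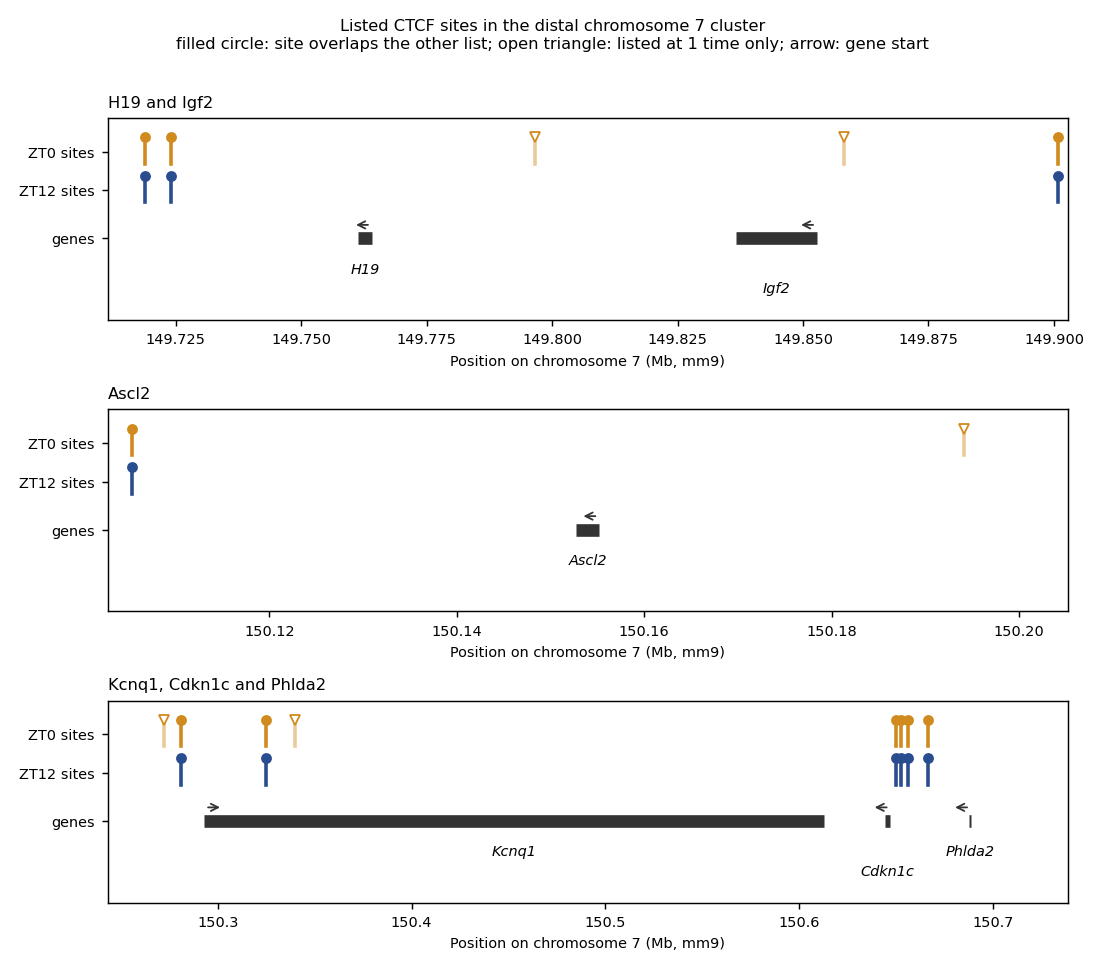
Position on chromosome 7 (Mb, mm9) of the listed CTCF sites in the windows of H19 and Igf2 (top), Ascl2 (middle) and Kcnq1, Cdkn1c and Phlda2 (bottom), with ZT0 sites in orange, ZT12 sites in blue and gene bodies as black bars with an arrow at the gene start. Filled circles are sites that overlap the other list and open triangles are sites listed at one time only; 4 shared sites lie between Cdkn1c and Phlda2, and the interval between H19 and Igf2 holds 1 ZT0-only site.

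In the Dlk1-Meg3 cluster on chromosome 12, 3 ZT0 sites and 1 ZT12 site were listed. Meg3, a maternally expressed non-coding RNA, had the shared site just inside its gene, at chr12:110780256-110780567 at ZT0 and chr12:110780166-110780494 at ZT12, 1.04 and 0.955 kb downstream of its start. A ZT0-only site followed at chr12:110781119-110781431, 1.91 kb downstream, and both lay within 1 kb of the start of a Meg3 transcript. Both were also in the window of Rtl1, a paternally expressed gene derived from a retrotransposon, 57.1 kb or more from its start. Dlk1, a paternally expressed gene for a transmembrane protein related to Notch ligands, had a ZT0-only site 14.7 kb upstream and no ZT12 site. The non-coding RNA genes Rian and Mirg had no site of either list, and their nearest ZT0 site lay 60.7 and 192 kb away. In the windows of these genes, 2 of the 3 ZT0 sites and the only ZT12 site thus lay at the beginning of Meg3.

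The Peg3 cluster at the other end of chromosome 7 held 4 ZT0 sites, of which 2 were shared, and 2 ZT12 sites. Peg3 is a paternally expressed zinc finger gene, and its single site, chr7:6680062-6680483, was ZT0-only and lay in an intron 2.65 kb downstream of the start. The same site was the only one in the window of Zim1, a maternally expressed zinc finger gene, 30.9 kb upstream of it. At ZT12 the nearest site to the Peg3 start was 188 kb away. Usp29, a paternally expressed gene of the ubiquitin peptidase family, had shared ZT0 sites 23.7 and 42.6 kb upstream and a ZT0-only site 19.9 kb upstream, all between genes. These Usp29 positions hold for its gene record in the annotation used, which is 2.61 kb long. Peg3 and Zim1 therefore had a ZT0 site and no ZT12 site, as did Dlk1. These were the 3 genes of the 39 for which that was so. Of the 39 genes, 25 had a ZT0 site and 22 had sites of both lists. Among the 34653 autosomal genes these counts were 18006 and 13819, and the difference was not tested.

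The Trappc9-Kcnk9 cluster on chromosome 15 held 6 ZT0 sites and 4 ZT12 sites, with all 4 ZT12 sites shared. Kcnk9, a potassium channel gene with maternal expression in the brain, had a shared site 2.99 kb upstream of its start at ZT0, chr15:72379703-72380144, between genes. A further shared site lay in an intron of Kcnk9, 29.0 kb downstream. Trappc9, a gene for a subunit of a vesicle trafficking complex, is 472 kb long and had shared intron sites 38.0 and 251 kb downstream of its start at ZT0. Its ZT0-only sites were closer to the start, in an intron 16.3 kb downstream and at chr15:72899387-72899613, between genes, 7.75 kb upstream. The sites nearest to the Trappc9 start were thus the ones missing from the ZT12 list.

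H13, a gene for an intramembrane peptidase in which the imprinted gene Mcts2 lies, had 4 ZT0 sites and 2 ZT12 sites. The shared site covered the H13 start, at chr2:152494973-152495305 at ZT0 and chr2:152494976-152495235 at ZT12. ZT0-only sites lay 11.8 kb upstream of the start, between genes, and 23.8 and 27.3 kb downstream of it, within the gene, and a ZT12-only site at chr2:152568251-152568503 was between genes, 73.1 kb downstream. Nnat, a paternally expressed gene for a small membrane protein, lies within Blcap on the opposite strand, and both genes had the same 2 shared sites. The first, chr2:157397354-157397613 at ZT0, was 0.344 kb upstream of the Blcap start and 11.5 kb downstream of the Nnat start, and the second was between genes 33.7 kb upstream of Blcap. Gnas on the same chromosome, the gene of the stimulatory G protein alpha subunit, had no site, with the nearest 388 kb from its start at ZT0 and 374 kb at ZT12.

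**Figure D3:**
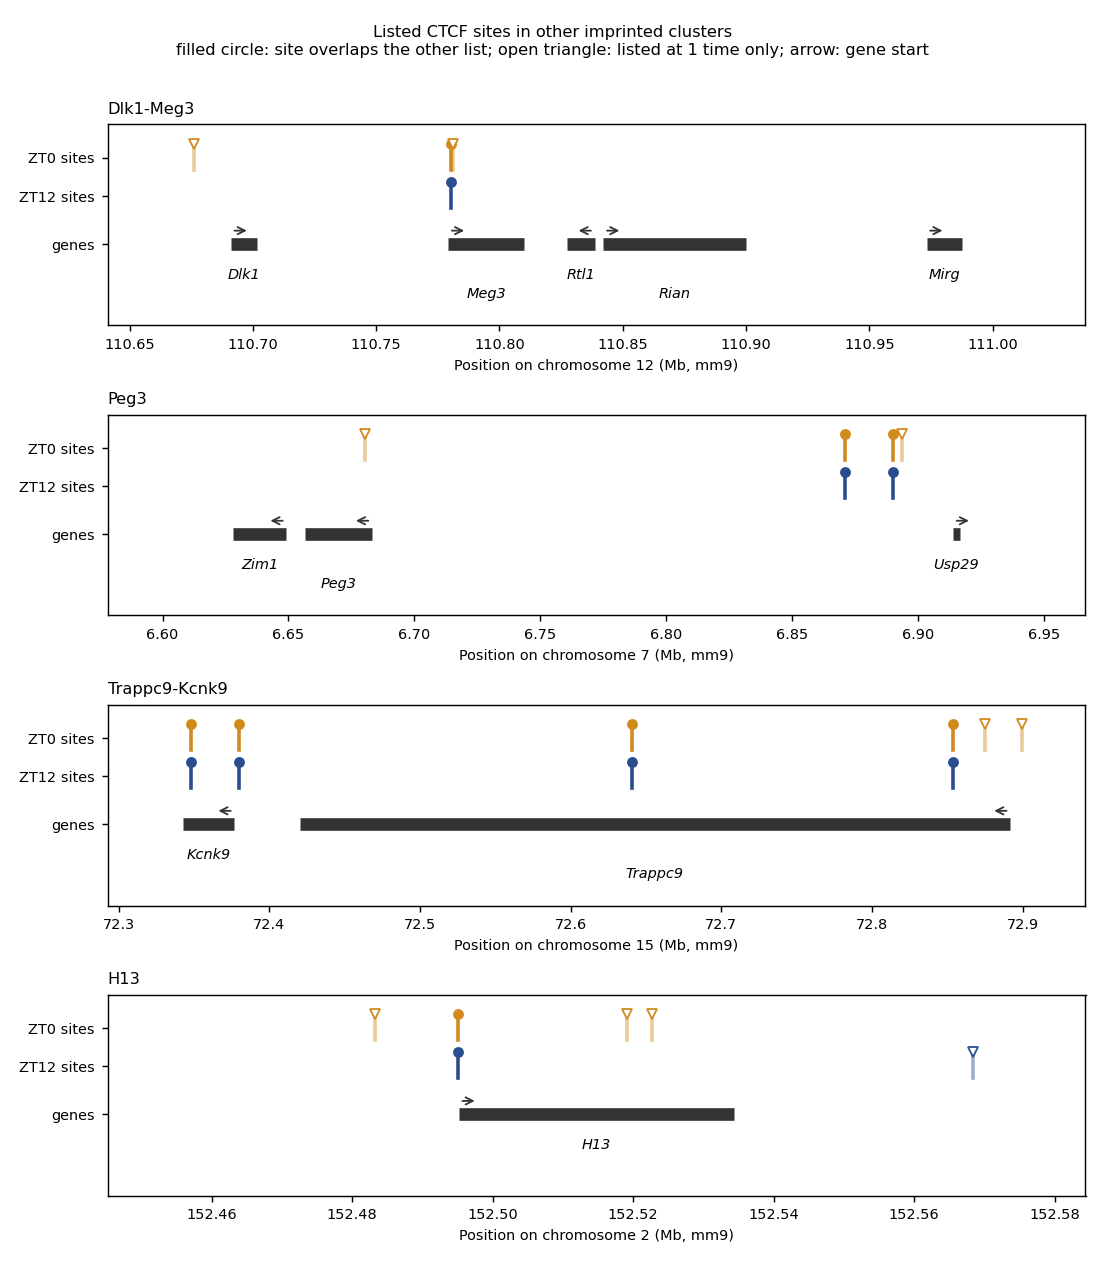
Position (Mb, mm9) of the listed CTCF sites in the Dlk1-Meg3, Peg3, Trappc9-Kcnk9 and H13 windows, drawn as in the map of distal chromosome 7: ZT0 sites orange, ZT12 sites blue, filled circles shared, open triangles listed at one time only, black bars genes with an arrow at the start. The shared sites include 1 within Meg3 close to its start and 1 over the H13 start, and the only ZT12-only site in these panels is downstream of H13.

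On chromosome 11, Grb10, an adaptor protein gene that restrains growth signalling, had a shared ZT0 site in an intron 64.9 kb downstream of its start. It also had a ZT0-only site, chr11:11925751-11926018, 12.7 kb downstream and within 1 kb of the start of a Grb10 transcript. Its neighbour Ddc, the gene of aromatic L-amino acid decarboxylase, had a shared site in a non-coding exon of Fignl1, 109 kb downstream, and a ZT12-only site at chr11:11712016-11712347 between genes, 85.7 kb downstream. Commd1, a gene for a protein of copper metabolism in which the imprinted gene Zrsr1 lies, had a ZT0-only site over its start, chr11:22882175-22882491. A shared site was listed at chr11:22887391-22887603 at ZT0 and chr11:22887416-22887643 at ZT12, between genes, 5.01 and 5.03 kb upstream. At Grb10 and at Commd1 the site within 1 kb of a transcript start was thus the one listed at ZT0 only.

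Igf2r, the maternally expressed receptor that clears IGF2, had a shared site 40.8 kb upstream at ZT0, in an intron of the antisense RNA gene Airn, and a ZT0-only site in its own intron 79.9 kb downstream. Slc38a4, an amino acid transporter gene, and Inpp5f, a phosphoinositide phosphatase gene, each had 1 shared site, 102 and 94.5 kb downstream of the start at ZT0. None of these 3 genes had a site within 10 kb of its start. Rasgrf1, a guanine nucleotide exchange factor gene, had a shared site 167 kb and a ZT0-only site 145 kb downstream of its start. The ZT0-only site lay within 1 kb of the start of a Ctsh transcript. The shared Rasgrf1 site was the one just inside the 50 kb limit, 49.9 kb beyond the gene at ZT0, where it was listed at chr9:89971751-89972017, and was listed at ZT12 at chr9:89971765-89971980. Of the sites in no window, the nearest to the limit lay 57.7 kb (ZT0) and 57.6 kb (ZT12) beyond Slc38a4. Gene by gene, the nearest sites outside were those 50.3 kb beyond Ndn at ZT12 and 51.8 kb beyond Magel2 at ZT0, both within the Mkrn3 window.

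The Snrpn-Ube3a region on chromosome 7, in which the ring finger gene Mkrn3 and the neuronal genes Magel2, Ndn and Snrpn are paternally expressed and the ubiquitin ligase gene Ube3a is maternally expressed in neurons, held 1 ZT0 site and 2 ZT12 sites in 0.608 Mb, and none was shared. Per Mb there were 1.65 ZT0 sites, against the 5.39 of all autosomal gene windows, and 3.29 ZT12 sites, against 3.65. The ZT0-only site, chr7:69578306-69578521, was 13.3 kb upstream of Mkrn3. The ZT12-only sites were chr7:69581413-69581632, 16.4 kb upstream of Mkrn3, and chr7:69545146-69545412, 19.6 kb downstream of Mkrn3 and 23.3 kb downstream of the Magel2 start. All 3 lay between genes. From the Snrpn start the nearest site was 588 kb away at ZT0 and 2260 kb away at ZT12, and from the Ube3a start 1390 and 3060 kb, the longest distances among the 39 genes. Ndn had no site in its window, but the ZT12-only site near Magel2 was only 0.332 kb past the limit.

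Impact on chromosome 18, a paternally expressed regulator of translation, had a ZT12-only site at chr18:13185687-13185921, between genes, 54.9 kb downstream, and no ZT0 site within 426 kb of its start. Impact and Magel2 were the 2 genes with a ZT12 site and no ZT0 site. For Magel2 this rests on the limit, since a ZT0 site lay 1.78 kb past it. Of the 39 genes, 24 had a ZT12 site and 22 had sites of both lists. Among the 34653 autosomal genes these counts were 14693 and 13819, and the difference was not tested. The ZT12-only sites of Impact and Magel2, those near Ddc and H13 and the second Mkrn3 site make up all 5. They were 220 to 332 bp wide and all between genes. Of the 1090 autosomal ZT12-only sites, 532 lay outside gene bodies, and the difference was not tested.

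Besides Gnas, 4 other clusters had no site of either list. They were Plagl1, a zinc finger gene on chromosome 10, and on chromosome 6 Peg10 with Sgce, a retrotransposon-derived gene and the sarcoglycan epsilon gene, Mest with Copg2, a gene of the hydrolase fold family and a coatomer subunit gene, and Nap1l5, a gene related to nucleosome assembly proteins. The nearest ZT0 site lay 339 kb from the Plagl1 start, 201 kb from those of Peg10 and Sgce, 188 kb from Mest, 179 kb from Copg2 and 135 kb from Nap1l5. With Gnas, Rian, Mirg, Snrpn, Ube3a and Ndn, 12 of the 39 genes had no listed site (30.8%, against 45.5% of all autosomal genes), and imprinted genes ranged from none to 7 sites per window. The 45.5% covers gene records of all types, while 35 of the 39 genes are protein coding.

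Other imprinted genes, from a further list of 46 genes, were counted in the same way. Of the 39 with a gene record, 25 had a ZT0 site (64.1%, against the 52.0% of all autosomal genes), 18 a ZT12 site (46.2%, against 42.4%) and 18 sites of both lists (46.2%, against 39.9%), and many of them share windows with the genes above. Protein-coding autosomal genes alone gave 60.2% for ZT0, 49.9% for ZT12 and 47.3% for both, so against them only the ZT0 share was higher. At Dio3, a thyroid hormone deiodinase gene at the far end of the Dlk1-Meg3 cluster, a ZT0-only site, chr12:111516318-111516560, lay 0.718 kb upstream of the start, and no ZT12 site was in its window. At Osbpl5 in the distal chromosome 7 cluster, 3 of 4 ZT0 sites and all 3 ZT12 sites were shared, and the nearest was 2.64 kb from the start. These genes were chosen after their values were seen.

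By location, 12 of the 46 ZT0 sites lay within 1 kb of the start of an annotated transcript (26.1%, against 20.3% of the autosomal ZT0 sites), 15 in introns, 1 in a non-coding exon and 18 between genes. Of the 32 ZT12 sites, 5 lay near a transcript start (15.6%, against 20.4%), 10 in introns, 1 in a non-coding exon and 16 between genes. Only 5 of the 12 ZT0 sites near transcript starts were shared (41.7%), against 62.4% of the 2036 such sites on the autosomes. Elsewhere in the windows 22 of 34 ZT0 sites were shared (64.7%), against 54.9%. Of the ZT12 sites, all 5 near transcript starts were shared, against 92.6% on the autosomes, and 22 of 27 elsewhere (81.5%), against 81.6%. The order of the ZT0 shares was thus the reverse of that on the autosomes, and the order of the ZT12 shares was the same. This split was made after the values were seen, rests on 12 ZT0 and 5 ZT12 sites near starts and was not tested.

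The CTCF motif was described with a weight matrix of 19 bp learned from the listed sites, which scores how much better a sequence matches the motif than the background. The matrix from even-numbered chromosomes scored the odd-numbered ones and the reverse, and the most frequent bases of both read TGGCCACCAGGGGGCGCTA. A match was a score, on either strand, over the 15.64 that 1% of regions of the same length 5 kb away pass. A match was present in 31 of the 46 ZT0 sites (67.4%, 53.0 to 79.1%), against 60.2% of the autosomal ZT0 sites. At ZT12 it was present in 22 of 32 sites (68.8%, 51.4 to 82.0%), against 62.2%. The intervals hold the autosomal values. According to their label the lists had been through a motif search by the authors, so these percentages do not stand apart from how the sites were chosen. The best motif of 60.9% of the ZT0 sites held a CpG, the dinucleotide that can be methylated, against 57.6% on the autosomes, and of 59.4% against 58.4% at ZT12. Median GC content in 200 bp around the midpoint was 56.5% against 53.0% at ZT0 and 55.2% against 53.0% at ZT12.

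Sequences are shown for the sites nearest to imprinted genes, those within 10 kb of a gene start that had a match, as 19 bp runs from 5′ to 3′ on the strand of the match in mm9 (NCBIM37), with CpG in capitals. The first 3 are the shared Cdkn1c sites, all on the minus strand at chr7:150649981-150649999, chr7:150652399-150652417 and chr7:150656061-150656079 with scores of 24.31, 23.08 and 17.02.
Cdkn1c, 2.88 kb upstream: CGgccaccagggggcagca
Cdkn1c, 5.28 kb upstream: tgaccaccagggggcagaa
Cdkn1c, 8.90 kb upstream: tggccagcaggCGgCGccc
The 3 matches nearest to Cdkn1c thus point the same way, and they differ in the number of CpG, with 1, 0 and 2. The match of the fourth Cdkn1c site, in Slc22a18, had a score of 20.86 and lay on the plus strand.

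At the other shared sites near gene starts, the matches were on the plus strand at chr15:72379998-72380016 (Kcnk9, score 21.79), chr2:152495123-152495141 (H13, 19.26) and chr12:110780377-110780395 (Meg3, 19.13), and each held 2 CpG.
Kcnk9, 2.99 kb upstream: gCGccaccagggggCGcta
H13, over the start: cCGccaccagagggCGatc
Meg3, within the gene: tggcCGcaagagggCGctg
At the ZT0-only sites of Trappc9 and Peg3, the matches lay at chr15:72899466-72899484 on the plus strand (score 22.44) and at chr7:6680112-6680130 on the minus strand (16.07).
Trappc9, 7.75 kb upstream: tgaccaccaggtggcagaa
Peg3, in an intron: tggccacaagggggcatct
Neither of these matches held a CpG, but over all windows 6 of the 10 ZT0-only sites with a match had a CpG in it, as did 15 of the 21 shared ZT0 sites with one. The Trappc9 match scored higher than those of Kcnk9, H13 and Meg3. Sites within 1 kb of transcript starts with no match in GC-rich sequence were found among ZT0-only sites, at Grb10 (score 3.19, GC content 69.5%), Commd1 (score -5.69, GC content 61.5%) and Ctsh (score -0.12, GC content 61.5%), and among shared sites, at Mrpl23 (score -0.50, GC content 73.0% at ZT12).

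The comparison was also made from the motif side, a count added after seeing the lists. On the autosomes 29666 motif matches were found, and 23.3% of them lay in a listed site of either time, or 24.6% of those in the windows of autosomal genes. In the imprinted gene windows 35 of 89 matches did so (39.3%, 29.8 to 49.7%). Among matches scoring over 20, the share was 42.0% on the autosomes, 43.6% in autosomal gene windows and 17 of 24 in the windows (70.8%, 50.8 to 85.1%). These shares around imprinted genes were above those around all autosomal genes, a difference that was not tested. The unlisted matches included 2 in the Plagl1 window, 1 in that of Gnas, 1 at Peg10, 2 in the Copg2 window and 1 at Nap1l5, so the clusters with no site were not without the motif. The unlisted match with the highest score in the windows was that of Igf2r at chr17:12832641-12832659 (23.03). Around H19, the only unlisted match lay 9.71 kb upstream of the start (score 15.72). In the 5 kb upstream of H19, no sequence reached the score of a match, and 2 reached the score of 8.91 that 5% of the regions 5 kb away pass, 1.13 and 4.85 kb from the start, which says only how these bases fit this matrix.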

How the data were processed

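CTCF ChIP-seq of mouse liver was used, with 2 biological replicates per time point. Reads were aligned by the authors to mm9 (NCBIM37) using Bowtie2, filtered using SAMtools and passed to MACS2 for peak calling, per the methods of the study and the submitters' processing notes. They deposited 1 list per time point with chromosome, start and end in bp, whose label names both replicates and a motif search. How replicates were combined is not given in the sources used here.

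Positions were converted to count from 1 and compared with GENCODE M1 gene records of the same build. Genes were extended by 50 kb and overlapping windows merged. Distances run from the gene start to the nearest edge of a site. All listed genes are named, grouped by cluster. Sites are named when they were the nearest within 10 kb of a gene start, between H19 and Igf2, ZT12-only or at the 50 kb limit, and others were added after their values were seen. The genes and lists were chosen with earlier results of these data known. The matrix was started from the 8-mer most over-represented in the sites and refined in 3 rounds. Overlaps, windows and motif positions were tested on simulated data. Alternatives covered the extension, the overlap required, wide sites only, protein-coding background, the distal chromosome 7 cluster, the gene start, the motif score and the GC span. Python 3.11.15, NumPy 2.4.6, SciPy 1.17.1 and Matplotlib 3.10.9 were used.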

Additional observations from a re-analysis of the deposited data

How the results depend on the processing

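No paired analysis was possible because no site carries a replicate number, and leaving out each replicate and a replicate block were not run. Read depth is unknown, so a site in a single list says nothing of weak binding at the other time. Of 80 alternative values, 48 stayed within the limits set and 32 did not. The limit was the confidence interval for percentages of sites and of motif matches, and a factor of 1.5 for all other values, percentages of autosomal genes included.

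The extension of the genes mattered most, since shorter windows hold fewer sites. With gene bodies alone there were 16 ZT0 and 7 ZT12 sites (43.8% and 100% shared, against 56.2% and 84.2% on the autosomes) in 9 and 6 genes, 6 genes had both, and ZT12 density was 2.92 per Mb. This was under the 3.51 of all autosomal gene bodies, so the comparison of ZT12 densities turned round, while at ZT0 it kept its direction (6.67 against 5.34). All autosomal genes then gave 13%, 9.13% and 8.04% for a ZT0 site, a ZT12 site and both. With 10 kb there were 25 and 15 sites in 14 and 12 genes, 11 genes had both, 93.3% of ZT12 sites were shared (against 84.8% in such windows of all autosomal genes), and autosomal genes gave 26.9%, 20.2% and 18.3%. With 100 kb no value moved this far.

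With sites at least as wide as the median of their list, there were 27 ZT0 sites (37.0% shared with a ZT12 site also kept) and 14 ZT12 sites, 14 genes had a ZT12 site and 13 both, and autosomal genes gave 27.8% for ZT12 and 23.6% for both. The share fell on the autosomes too, to 45.1% of ZT0 sites. With the score that 5% of regions pass, 84.8% of ZT0 and 90.6% of ZT12 sites held a match, against 85.0% and 86.1% on the autosomes. For motif matches scoring over 20, chosen after seeing the data, 70.8% in the windows, 43.6% in all autosomal gene windows and 42.0% on the autosomes lay in a listed site, and the cause was not tested. The remaining alternatives (overlap, protein-coding background, no distal chromosome 7, gene start, GC span) gave values within these limits.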
